A study of Mus musculus with 7 samples.

Results

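The genes described here are 10 genes of capillary endothelial lipid handling, found by symbol among the 21176 genes of the deposited table, each as a single row. They cover fatty acid carriers (Fabp4, Fabp5), uptake and lipoprotein lipase transport (Cd36, Gpihbp1), surface and channel proteins of capillaries (Cd300lg, Aqp1, Aqp7) and transcription factors (Meox2, Tcf15, Pparg). They were grouped by function with the Ngfr KO against WT results of these samples already known. Their differences between the genotypes are therefore given as a description, with standard errors and without p-values.

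RNA was sequenced from follicular dendritic cells (FDCs), stromal cells that hold antigen in the B-cell follicle, which had been isolated from popliteal lymph nodes by flow cytometry. The mice were non-immunized males aged 8 to 12 weeks, either wild type (WT, n = 4 samples) or lacking Ngfr, the low-affinity neurotrophin receptor gene (Ngfr KO, n = 3 samples). Several animals were pooled for each sample, and the labels name neither the knockout allele nor the sorting gate. The study's design asks which transcripts differ between sorted cells of the 2 genotypes.

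Capillary endothelial cells take up fatty acids that lipoprotein lipase releases from circulating triglyceride. GPIHBP1 carries the lipase to the vessel lumen, CD36 takes up long-chain fatty acids, and FABP4 and FABP5 bind fatty acids inside the cell. PPARγ is a nuclear receptor that fatty acids bind, and Fabp4 and Cd36 are among its classical targets in fat tissue and macrophages. MEOX2 and TCF15 act as a heterodimer that drives fatty acid uptake genes in endothelium of heart and muscle. Several of the 10 genes, such as Gpihbp1 and Cd300lg, are known markers of blood capillaries.

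Depth was 17244925 to 18873542 reads per WT library and 20741770 to 21538400 per Ngfr KO library, so every Ngfr KO library was the deeper. A deposited value of 1 was worth 230 to 295 reads. Ngfr, the targeted gene, ranged over 0.377 to 1.30 among WT samples and 0.184 to 0.353 among Ngfr KO samples. The change was -1.26 in log2 (SE 0.40; adjusted p = 0.0394 by limma), and edgeR gave an adjusted p of 0.0574. It was called in 4 of the 15 alternatives that tested it, and an exact permutation test gave p = 0.0571. Each Ngfr KO sample kept 46 to 104 Ngfr reads, so this gene is only a weak check of the labels. All 16 listed FDC markers were measured, among them the complement receptor gene Cr2 at 50.2 ± 21.3 in WT (SD, n = 4) against 101 ± 9 in Ngfr KO (SD, n = 3). Fcer2a, another of them, had 4.84 ± 2.72 and 46.5 ± 16.7. By limma 13 of the 16 were called higher and 0 lower, with a median log2 change of 1.47. Over all genes tested, 11% were called higher and 11.3% lower. All 14 pan-endothelial markers were measured as well, so transcripts of endothelium were present in libraries labelled as FDCs. In bulk samples such as these, fewer cells of a type and less RNA per cell cannot be told apart.

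Of the 10 genes, 8 passed the filter on low values (0.1 or more in 3 or more samples) and entered the fit, while Aqp7 and Tcf15 did not. The genes did not move as 1 block. In 6 genes every Ngfr KO value lay below every WT value (Fabp4, Gpihbp1, Cd36, Cd300lg, Pparg and Tcf15), in Fabp5 every Ngfr KO value lay above every WT value, and in Aqp1, Aqp7 and Meox2 the groups overlapped. Over all 14592 genes tested, 16.6% had non-overlapping groups with Ngfr KO lower and 16.6% with Ngfr KO higher. limma called 4 of the 8 tested genes, all lower (Fabp4, Gpihbp1, Cd36 and Cd300lg), where 22.2% of all genes tested were called, 11.3% lower and 11% higher. edgeR on the recovered reads called the same 4 of 9 genes it tested, against 15.2% of its 16751 genes called, 6.55% lower and 8.67% higher. Because the genes were grouped with this contrast known, nothing is read from these counts.

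**Figure D1:**
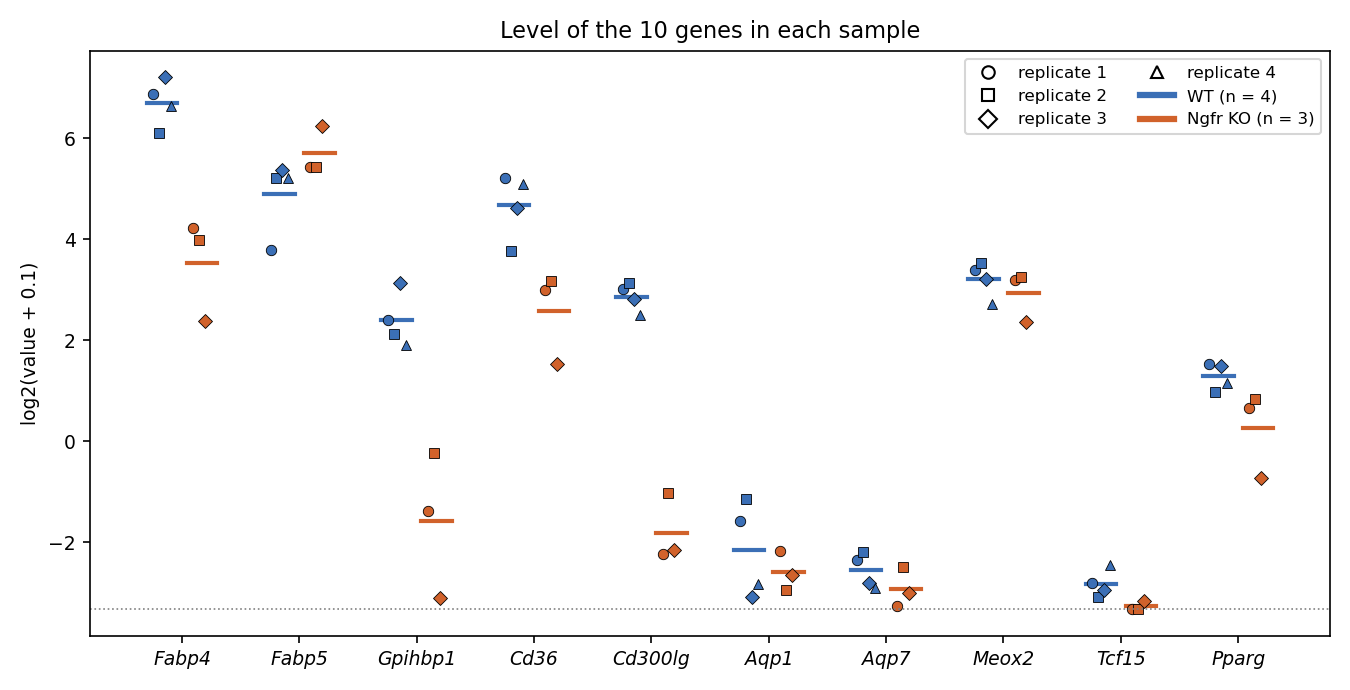
Level of each of the 10 genes on the log2(value + 0.1) scale in every sample. Blue symbols are WT (n = 4), orange symbols Ngfr KO (n = 3), the symbol shape gives the replicate number, short bars are means of the plotted points, and the dotted line is a value of 0. Fabp4, Gpihbp1, Cd36 and Cd300lg lie lower in all 3 Ngfr KO samples, Fabp5 lies higher, and Meox2 overlaps.

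Fabp4 encodes the adipocyte-type fatty acid binding protein, which capillary endothelium also makes. It was the most abundant of the 10 genes in WT. Its value was 117, 68.5, 147 and 98.8 in WT replicates 1 to 4 and 18.6, 15.6 and 5.08 in Ngfr KO replicates 1 to 3. The lowest WT value was 3.68-fold above the highest Ngfr KO value. The means were 108 ± 33 (SD, n = 4) against 13.1 ± 7.1 (SD, n = 3), an 8.23-fold lower mean, and the log2 change was -3.18 (SE 0.39). Reads were not scarce in either genotype, with 18308 to 33831 per WT sample and 1268 to 5129 per Ngfr KO sample. Fabp4 lies on chromosome 3 from 10204088 to 10208576 on the minus strand (GRCm38, GENCODE M21), and none of its 50-base stretches occurs in a transcript of another gene.

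Fabp5, the epidermal-type fatty acid binding protein, went the other way. It lies 187 kb from Fabp4 on the same chromosome, from 10012548 to 10016607 on the plus strand. Its value was 13.6, 36.9, 41.2 and 36.8 in WT and 43.1, 43.1 and 75.3 in Ngfr KO. The genotypes were separated by a narrow gap: the highest WT value was 41.2 and the lowest Ngfr KO value 43.1. WT replicate 1 stood well below the other WT samples, and Ngfr KO replicate 3 well above the rest. The means were 32.1 ± 12.5 (SD, n = 4) against 53.8 ± 18.6 (SD, n = 3), a log2 change of 0.81 (SE 0.36). The summed value of the FDC markers was 1844 in WT replicate 1, 3998 to 5163 in the other WT samples and 8038 to 10554 in Ngfr KO, and its part in the Fabp5 difference was not tested. Of the 50-base stretches of Fabp5, 5.48% also occur in transcripts of 5 other genes, among them Fabp5l2 and Gm6166, so some of its reads could have been shared in counting.

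The genes nearest to the pair were examined for a change along the chromosome. Impa1, an inositol monophosphatase gene on the far side of Fabp4, rose from 4.72 ± 0.42 (SD, n = 4) to 7.83 ± 1.43 (SD, n = 3), a change of 0.71 in log2 (SE 0.19; adjusted p = 0.0194 by limma). Pag1, on the far side of Fabp5, had 0.438 ± 0.118 and 0.414 ± 0.123 (limma adjusted p = 0.912). Neither neighbour was lower in Ngfr KO beyond its spread, unlike Fabp4 itself. Gm9833, between them, had at most 23 reads in any sample and was not tested.

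Gpihbp1, the carrier of lipoprotein lipase on capillary endothelium, is a LY6 family gene on chromosome 15 from 75596628 to 75599481, plus strand. Its value was 5.16, 4.24, 8.71 and 3.65 in WT and 0.287, 0.746 and 0.0160 in Ngfr KO. In reads this was 956 to 2004 in WT and 79, 220 and 4 in Ngfr KO. Each Ngfr KO sample was far below each WT sample, and the Ngfr KO samples differed 46.6-fold among themselves. The mean was 15.6-fold lower in Ngfr KO, and 36.0-fold lower without Ngfr KO replicate 2, the highest of the 3. The log2 change was -3.96 (SE 0.53).

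Of 10 other LY6 family genes tested, limma called 0 lower and 2 higher, a share near that over all genes (22.2%). At an unadjusted p under 0.05 there was 1 lower, Lypd6, at 0.0584 to 0.239 (WT) against 0 to 0.0509 (Ngfr KO) (limma adjusted p = 0.0704), and edgeR called 0 lower. Beside Gpihbp1 on the chromosome, Zfp41 had 0.323 to 0.912 (WT) against 0.128 to 0.322 (Ngfr KO) and was not called (limma adjusted p = 0.115). Ly6k rose from 4.99 ± 1.70 (SD, n = 4) to 13.04 ± 5.48 (SD, n = 3), a change of 1.36 in log2 (SE 0.32; adjusted p = 0.0109 by limma), and Ly6i by 0.99 (SE 0.20, limma adjusted p = 0.00531). Ly6e was the most abundant of them, at 166 ± 26 and 126 ± 20, and was not called (limma adjusted p = 0.278). Ly6c1, a gene of capillary endothelium named here because of its values, averaged 2.51 in WT and 0.431 in Ngfr KO with overlapping groups (limma adjusted p = 0.475). The family's median log2 change was 0.12, against -0.04 over all genes tested.

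Cd36 encodes the fatty acid translocase, on chromosome 5 from 17781690 to 17888801, minus strand. Its value was 36.9, 13.4, 24.3 and 34.1 in WT and 7.91, 8.88 and 2.80 in Ngfr KO. WT replicate 2, the lowest of its group, was only 1.51-fold above Ngfr KO replicate 2. The mean was 4.16-fold lower in Ngfr KO, from 27.2 ± 10.6 (SD, n = 4) to 6.53 ± 3.27 (SD, n = 3), with a log2 change of -2.10 (SE 0.40). Macrophages and adipocytes also express Cd36, Fabp4 and Pparg. Of the macrophage list, 10 of 12 genes were analysed, and their summed value was 26.1 to 95.9 (WT) and 31.5 to 55.9 (Ngfr KO), with Marco the largest part (61.2 on average in WT and 24.8 in Ngfr KO, overlapping). Of the 7 tested, 1 was called lower, Mertk, at 0.558 in WT and 0.0657 in Ngfr KO (limma adjusted p = 0.00431, edgeR 0.111), and 1 higher, Lyz2, with overlapping groups (limma adjusted p = 0.0467, edgeR 0.0576). Over all genes tested, limma called 11.3% lower and 11% higher. Mrc1 averaged 6.23 and 1.17 with overlapping groups (limma adjusted p = 0.055). C1qb had at most 41 reads and was lower in every Ngfr KO sample. It was called by edgeR (adjusted p = 0.0274) and not by limma (adjusted p = 0.0764). Adgre1, C1qa and C1qc had no more than 28, 7 and 22 reads in any sample. Which cells the Marco and Mrc1 transcripts came from was not tested, so the sum is not a measure of macrophages alone. Of the adipocyte list, 2 of 9 genes were analysed, and their summed value did not exceed 0.324 in any sample. The part of these cells in the Cd36 difference was not tested.

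Cd300lg, also called nepmucin, encodes a mucin-domain receptor of capillaries and venules that binds lymphocytes. It lies on chromosome 11 from 102041509 to 102055620, plus strand. Its value was 7.95, 8.65, 6.91 and 5.56 in WT and 0.112, 0.390 and 0.124 in Ngfr KO. WT samples were close together, with 1457 to 2311 reads, and the Ngfr KO samples had 31, 115 and 31 reads. The lowest WT value was 14.2-fold above the highest Ngfr KO value, the widest separation among the 10 genes. The mean was 34.8-fold lower in Ngfr KO, or 61.4-fold lower without Ngfr KO replicate 2, and the log2 change was -4.67 (SE 0.31). Of its relatives, only Cd300a was tested, at 0.314 ± 0.172 in WT (SD, n = 4) against 0.827 ± 0.646 in Ngfr KO (SD, n = 3), with a limma adjusted p of 0.14. The nearest genes were low and not called. Mpp2 had 0.126 to 0.342 (WT) against 0.0611 to 0.0761 (Ngfr KO) (limma adjusted p = 0.109), and Mpp3 averaged 0.118 and 0.0259 (limma adjusted p = 0.261).

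The water channel Aqp1 and the glycerol channel Aqp7, some of whose 50-base stretches (3.87%) occur in transcripts of other genes, were near the detection limit. Aqp1 had 60, 94, 4 and 11 reads in WT and 34, 9 and 15 in Ngfr KO, a 20.2-fold spread of values within WT alone. Its groups overlapped, and its log2 change was -0.42 (SE 0.49). Aqp7, which releases glycerol from fat cells, had 25, 32, 10 and 9 reads in WT and 1, 23 and 6 in Ngfr KO. No difference between the genotypes stood out from this spread in either gene. The only other aquaporin tested was Aqp4, which rose from 3.28 ± 1.74 (SD, n = 4) to 8.37 ± 1.57 (SD, n = 3), a change of 1.49 in log2 (SE 0.38; adjusted p = 0.017 by limma).

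Meox2, the homeobox partner in the heterodimer, lies on chromosome 12 from 37108540 to 37179534, plus strand. Its value was 10.3, 11.4, 9.11 and 6.49 in WT and 9.08, 9.42 and 5.07 in Ngfr KO. The groups overlapped, and the log2 change of -0.27 (SE 0.26) was close to its own error. Tcf15, the bHLH partner, had 11, 5, 7 and 22 reads in WT and 0, 0 and 3 in Ngfr KO. With 3 reads in all in Ngfr KO, the floor used here, no fold change is given for Tcf15. The homologue Meox1, on the list of endothelial regulators and named here because of its values, fell from 2.72 ± 1.02 (SD, n = 4) to 1.01 ± 0.22 (SD, n = 3), a change of -1.28 in log2 (SE 0.31; adjusted p = 0.0137 by limma).

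Pparg lies on chromosome 6 from 115360951 to 115490399, plus strand. Its value was 2.80, 1.86, 2.71 and 2.13 in WT and 1.47, 1.70 and 0.500 in Ngfr KO. The groups were separated only narrowly, the lowest WT value being 1.09-fold above the highest Ngfr KO value, and the mean was 1.94-fold lower in Ngfr KO. The log2 change was -1.03 (SE 0.35). Ngfr KO replicate 3 had the lowest value of all 7 samples for Fabp4, Gpihbp1, Cd36, Meox2 and Pparg, and the highest for Fabp5. For Cd300lg it was not the lowest.

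Promoter sequences of Cd36, which was lower in Ngfr KO, and Meox2, which overlapped, are shown to set the 2 kinds of gene side by side. They are the 250 bases before an annotated start from RefSeq (GRCm38.p6), written 5′ to 3′ on the gene's strand. The Cd36 start used lies inside the span of the gene given above, so it is not the outermost start. Entries were present for Aqp1, Aqp7, Cd36, Meox2 and Pparg, 5 of the 10 genes. Capitals mark the nuclear receptor motif AGGTCA, which PPARγ and its partner RXR bind in pairs, the E-box CANNTG bound by bHLH factors, the homeodomain core TAATTA and the TATA box TATAAA, each searched on both strands.
Cd36 (chr5:17835897-17836146, minus strand): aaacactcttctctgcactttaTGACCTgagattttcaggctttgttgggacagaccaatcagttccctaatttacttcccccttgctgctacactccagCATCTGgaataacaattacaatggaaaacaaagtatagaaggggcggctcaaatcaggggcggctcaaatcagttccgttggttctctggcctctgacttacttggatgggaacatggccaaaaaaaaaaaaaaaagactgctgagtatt
Meox2 (chr12:37108290-37108539, plus strand): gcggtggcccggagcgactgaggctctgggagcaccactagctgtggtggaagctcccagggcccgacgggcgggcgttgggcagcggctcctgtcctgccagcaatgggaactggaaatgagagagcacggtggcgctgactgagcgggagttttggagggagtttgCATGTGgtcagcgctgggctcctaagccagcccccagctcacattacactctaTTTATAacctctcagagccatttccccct
The Cd36 window held AGGTCA on the opposite strand and 1 E-box, and the Meox2 window held 1 E-box and 1 TATAAA match on the opposite strand, 29 to 24 bases before the start. The AGGTCA motif was also found before 2 of the 3 annotated Pparg starts and in both Aqp7 windows. Among 32817 RefSeq promoter windows of 250 bases, 4604 held AGGTCA (14%), 66.2% an E-box, 4.85% TAATTA and 12.4% TATAAA. A match describes letters only and is no evidence of binding.

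Levels of different genes were compared per length in WT. Divided by the length of all annotated exons, the WT mean was 24.0 per kb for Fabp4, 9.01 for Fabp5, 7.57 for Cd36, 3.96 for Meox2, 2.66 for Cd300lg, 2.13 for Gpihbp1 and 0.803 for Pparg. Aqp1, Tcf15 and Aqp7 followed at 0.0613, 0.0449 and 0.0261 per kb. The annotated exons of Fabp4, Fabp5 and Gpihbp1 include retained-intron transcripts. With the principal protein-coding transcript as the length, a choice made after seeing the data, Fabp4 reached 120 per kb, Fabp5 32.5, Cd36 7.99 and Gpihbp1 6.59, which then stood above Meox2 at 3.96. In Ngfr KO the order began with Fabp5, at 15.1 per kb of all exons, followed by Meox2 at 3.33 and Fabp4 at 2.92, and per kb of the principal transcript it began with Fabp5 at 54.5 and Fabp4 at 14.6.

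Pan-endothelial transcripts had a lower sum in every Ngfr KO sample. The summed value of the 14 pan-endothelial markers lay between 143 and 181 in WT and between 59.1 and 78.4 in Ngfr KO, without overlap (exact two-sided permutation test over 35 splits, p = 0.0286, the smallest possible; Benjamini-Hochberg adjusted p = 0.105 over 11 marker lists). limma called 12 of the 14 lower and 0 higher. Pecam1, the platelet endothelial adhesion molecule, fell from 13.7 ± 3.3 (SD, n = 4) to 4.26 ± 0.75 (SD, n = 3), a change of -1.65 in log2 (SE 0.22; adjusted p = 8.46e-04 by limma). Cdh5, VE-cadherin, fell by 1.70 on the log2 scale (SE 0.24, limma adjusted p = 0.001). The list's median log2 change was -1.67, and Ecscr and Vwf were the 2 genes not called. Ecscr, the most abundant of the list, averaged 46.7 of a mean sum of 162 in WT and 33.1 of 69.4 in Ngfr KO, and the mean sum was 2.34-fold lower. Of 7 lymphatic endothelial markers tested, 4 were called lower and 0 higher, with a median log2 change of -1.43. Over all genes tested, 11.3% were called lower and 11% higher. The summed value of the lymphatic markers was 78.8 to 133 (WT) and 25.8 to 57.9 (Ngfr KO), without overlap. The lower level was therefore not confined to lists of blood endothelium. Endothelial lists did not all move this way, however. Of 6 high endothelial venule markers tested, 1 was called lower and 1 higher, and their summed value overlapped between genotypes (mean 198 in WT, 405 in Ngfr KO). That sum was mostly Glycam1, which averaged 150 in WT and 357 in Ngfr KO. Glycam1 ran from 117 to 611 among Ngfr KO samples and was not called (limma adjusted p = 0.142).

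Each of the 10 genes was also set against this sum within the same sample, as its value per 100 of the endothelial sum. On this scale the genes split into 3 kinds. Fabp4 stood at 66.6, 48.0, 81.3 and 65.9 in WT and 23.7, 22.1 and 8.58 in Ngfr KO, a 3.61-fold lower mean. Gpihbp1 stood at 2.94, 2.97, 4.82 and 2.43 in WT and 0.366, 1.05 and 0.0271 in Ngfr KO, 6.82-fold lower (16.8-fold without Ngfr KO replicate 2). Cd300lg stood at 4.53, 6.06, 3.82 and 3.70 in WT and 0.143, 0.551 and 0.210 in Ngfr KO, 15.0-fold lower (25.6-fold without Ngfr KO replicate 2). In these 3 genes the genotypes did not overlap on this scale either. The share of all genes without overlap on this scale was not computed, so nothing is read from this count. Single pan-endothelial genes also had Ngfr KO means far below WT: the Ngfr KO mean was 0.114 of the WT mean for Emcn and 0.153 for Robo4, beside 0.122 for Fabp4.

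Cd36 and Pparg no longer separated. Cd36 stood between 9.41 and 22.7 in WT and between 4.73 and 12.6 in Ngfr KO per 100 of the endothelial sum, and Pparg at 1.30 to 1.60 and 0.846 to 2.40. Meox2, which overlapped by its value, now separated with Ngfr KO higher, at 4.33 to 7.97 (WT) against 8.56 to 13.3 (Ngfr KO). Fabp5 stood at 7.76 to 25.8 (WT) against 55.0 to 127 (Ngfr KO), a 4.01-fold higher mean. The mean endothelial sum was 2.34-fold lower in Ngfr KO, so a gene with an unchanged value comes out higher on this scale. The higher standing of Meox2 therefore follows from the division and is not a separate result. The mean value of Fabp5 was 1.68-fold higher before the division, so much of its 4.01-fold follows from the division too. Whether the Meox2 and Fabp5 transcripts came from endothelium was not tested. With Pecam1 and Cdh5 alone as the reference, Fabp4, Gpihbp1 and Cd300lg again lay lower without overlap and Fabp5 and Meox2 higher. The means were then 2.55-fold lower for Fabp4, 4.59-fold for Gpihbp1 and 10.4-fold for Cd300lg, smaller than against the sum.

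**Figure D2:**
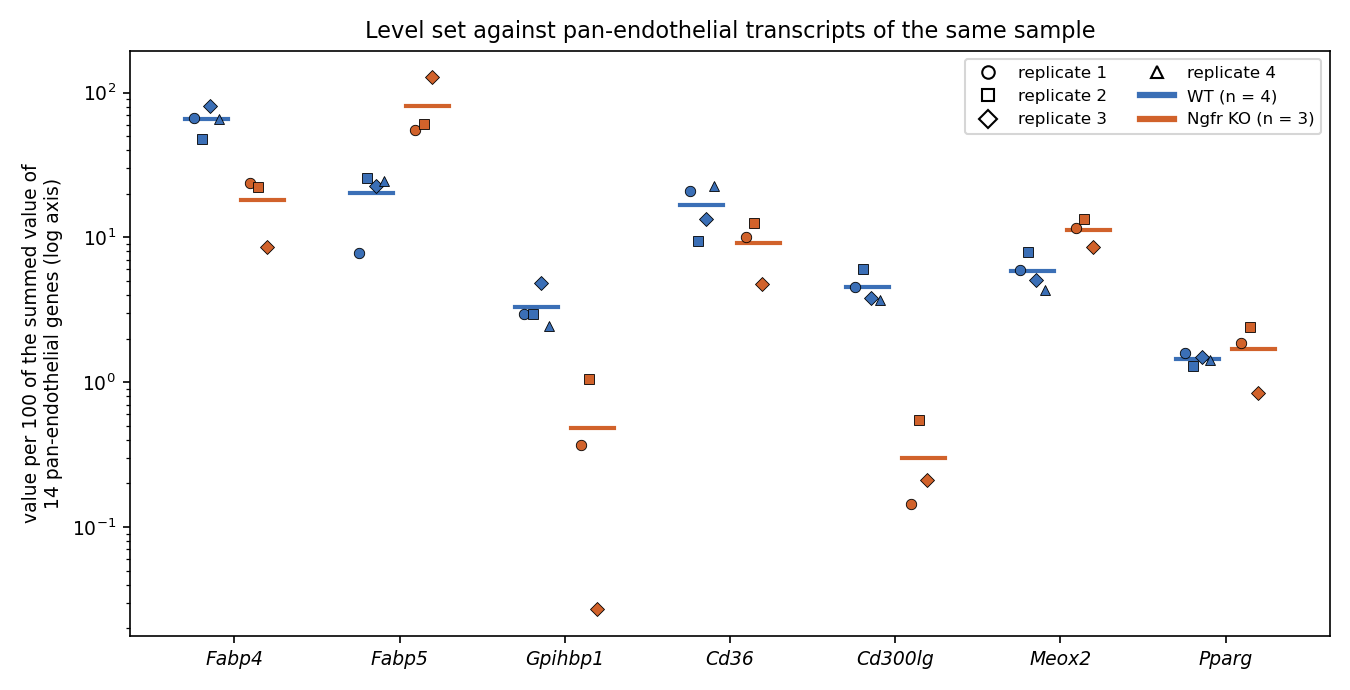
Value of 7 of the genes per 100 of the summed value of 14 pan-endothelial markers in the same sample, on a log axis. Symbols and colours are as above and short bars are arithmetic means. Fabp4, Gpihbp1 and Cd300lg remain lower in Ngfr KO, Cd36 and Pparg overlap, and Fabp5 and Meox2 lie higher.

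Other capillary markers did not fall uniformly. Of 19 tested, limma called 11 lower and 2 higher, with a median log2 change of -1.57. Btnl9, a butyrophilin-like gene of capillaries, fell from 6.22 ± 2.83 (SD, n = 4) to 0.732 ± 0.559 (SD, n = 3), a change of -3.20 in log2 (SE 0.57; adjusted p = 0.00298 by limma). Ptprb, the endothelial phosphatase VE-PTP, fell by 2.55 on the log2 scale (SE 0.32, limma adjusted p = 7.53e-04), and Podxl, Cd93 and Emcn fell by 2.02, 2.35 and 2.82. Against these, Gja4, a gap junction connexin, rose from 13.7 ± 7.9 to 72.6 ± 16.3, a change of 2.63 in log2 (SE 0.44; adjusted p = 0.00236 by limma). Ramp3, a receptor activity modifying protein, rose from 0.363 ± 0.217 to 3.17 ± 0.33, a change of 3.00 in log2 (SE 0.44; adjusted p = 0.00127 by limma). Car4 and Rgcc, with overlapping groups, were not called (limma adjusted p = 0.38 and 0.156). The summed value of the list overlapped between genotypes, at 105 to 155 (WT) and 112 to 159 (Ngfr KO). Gja4 alone made up 4.11 to 20.9 of it in WT and 57.3 to 89.7 in Ngfr KO. Which cells the Gja4 and Ramp3 transcripts came from was not tested. The FDC marker Mfge8 was also higher in Ngfr KO, with means of 292 in WT and 1453 in Ngfr KO. Emcn is also on the pan-endothelial list.

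Partners of the 10 genes in lipid uptake at the cell surface were mixed. Their counts and those of the lists that follow stand beside 11.3% of all genes called lower and 11% called higher. Of 20 tested genes, 5 were called lower and 3 higher, with a median log2 change of -0.33. The genes that fell furthest build caveolae, the membrane pits of endothelium. Cavin1 fell from 2.81 ± 0.82 (SD, n = 4) to 0.441 ± 0.026 (SD, n = 3), a change of -2.38 in log2 (SE 0.27; adjusted p = 6.66e-04 by limma). Cavin2 fell by 2.23 (SE 0.31, limma adjusted p = 9.90e-04). Cav1 fell by 1.80 (SE 0.45, limma adjusted p = 0.0152), though the genotypes overlapped, and the adjusted p from edgeR was 0.067. Cavin3 had 10.4 ± 4.2 and 11.1 ± 0.7 and was not called (limma adjusted p = 0.668).

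Genes of the lipase system went both ways. Lipg, endothelial lipase, rose from 0.0890 ± 0.103 (SD, n = 4) to 1.57 ± 1.07 (SD, n = 3), a change of 3.04 in log2 (SE 0.52; adjusted p = 0.00246 by limma), with at most 55 reads in any WT sample. Lmf1, the lipase maturation factor, rose by 1.60 (SE 0.30, limma adjusted p = 0.00389), and the lipoprotein receptor gene Lrp8 by 1.19 (SE 0.35, limma adjusted p = 0.0287). The following genes were chosen after their values were seen. Lpl itself, the lipase that GPIHBP1 carries, had 1.85 in WT and 1.01 in Ngfr KO on average with overlapping groups (limma adjusted p = 0.247). Angptl4, the secreted inhibitor of that lipase, fell by 1.21 (SE 0.29, limma adjusted p = 0.0123).

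Inside the cell, fatty acid transport, activation and storage had 3 genes called lower and 5 higher of 19, with a median log2 change of 0.44. Leaving out 1 sample gave 0 to 3 lower (0 without Ngfr KO replicate 2 or WT replicate 3, 1 without Ngfr KO replicate 3, WT replicate 1 or WT replicate 4) and 1 to 6 higher (1 without Ngfr KO replicate 2, 3 without Ngfr KO replicate 3 or WT replicate 1 or 2). The acyl-CoA synthetase and transporter genes Slc27a3 and Slc27a4 fell by 1.40 and 1.18 (limma adjusted p = 0.0295 and 0.0291), but edgeR did not call Slc27a3 (adjusted p = 0.206). Mgll, monoacylglycerol lipase, fell by 1.38 (limma adjusted p = 0.0278), and edgeR gave 0.0619. Plin2, which coats lipid droplets, rose from 10.6 ± 3.5 (SD, n = 4) to 23.4 ± 5.5 (SD, n = 3), a change of 1.17 in log2 (SE 0.27; adjusted p = 0.0098 by limma). Pnpla2, adipose triglyceride lipase, rose by 1.32 (SE 0.29, limma adjusted p = 0.00854). Fabp7 was called higher (log2 change 1.49, limma adjusted p = 0.0144), but it had at most 77 reads in any sample and edgeR gave 0.171. Hilpda had 4.89 ± 1.34 and 5.50 ± 3.34 and was not called (limma adjusted p = 0.934).

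Of 19 fatty acid oxidation genes, 3 were called higher and 1 lower, a share near the 22.2% over all genes, with a median log2 change of 0.21. Leaving out 1 sample gave 1 to 4 higher and 0 to 2 lower, with 1 higher without Ngfr KO replicate 2, 0 lower without Ngfr KO replicate 1 or 2 or WT replicate 1, and 2 lower without WT replicate 4. Cpt2, which loads fatty acids into the mitochondrial matrix, rose from 2.25 ± 0.48 (SD, n = 4) to 5.98 ± 1.43 (SD, n = 3), a change of 1.37 in log2 (SE 0.23; adjusted p = 0.0024 by limma). Etfdh rose by 1.03 (SE 0.25, limma adjusted p = 0.0127) and Hadhb by 0.65 (limma adjusted p = 0.0447), the latter with overlapping groups and an adjusted p of 0.0648 by edgeR. Pdk4, a kinase that spares glucose, fell by 1.496 (SE 0.39, limma adjusted p = 0.0187). Etfa was not called (limma adjusted p = 0.102).

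Among PPAR partners and related factors, 5 of 15 genes were called lower and 0 higher, with a median log2 change of -0.75. Leaving out 1 sample gave 1 to 6 genes called lower, with 1 without Ngfr KO replicate 2, 2 without Ngfr KO replicate 1 and 3 without WT replicate 1 or 2. Cebpd, a bZIP factor that precedes Pparg in fat cell formation, fell from 15.8 ± 6.7 (SD, n = 4) to 6.17 ± 1.02 (SD, n = 3), a change of -1.28 in log2 (SE 0.26; adjusted p = 0.0059 by limma). Cebpb fell by 1.29 (SE 0.33, limma adjusted p = 0.0175). Rxra, which encodes the partner of PPARγ on DNA, fell by 0.91 (SE 0.28, limma adjusted p = 0.0372), and edgeR gave an adjusted p of 0.0515. Med1, a coactivator, had 1.95 ± 0.26 and 1.92 ± 0.42 (limma adjusted p = 0.941).

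Regulators of endothelial lipid uptake had 8 of 14 genes called lower and 0 higher, with a median log2 change of -0.97. Kdr, the main VEGF receptor of blood endothelium, fell from 32.98 ± 9.99 (SD, n = 4) to 8.57 ± 3.22 (SD, n = 3), a change of -1.96 in log2 (SE 0.30; adjusted p = 0.00152 by limma). Gata2 and Tal1, transcription factors of blood and endothelium, fell by 2.04 and 1.97 (limma adjusted p = 0.0015 and 0.00272). Rbpj, the DNA-binding factor of Notch signalling, had 4.83 ± 0.62 and 4.54 ± 1.87 and was not called (limma adjusted p = 0.682).

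**Figure D3:**
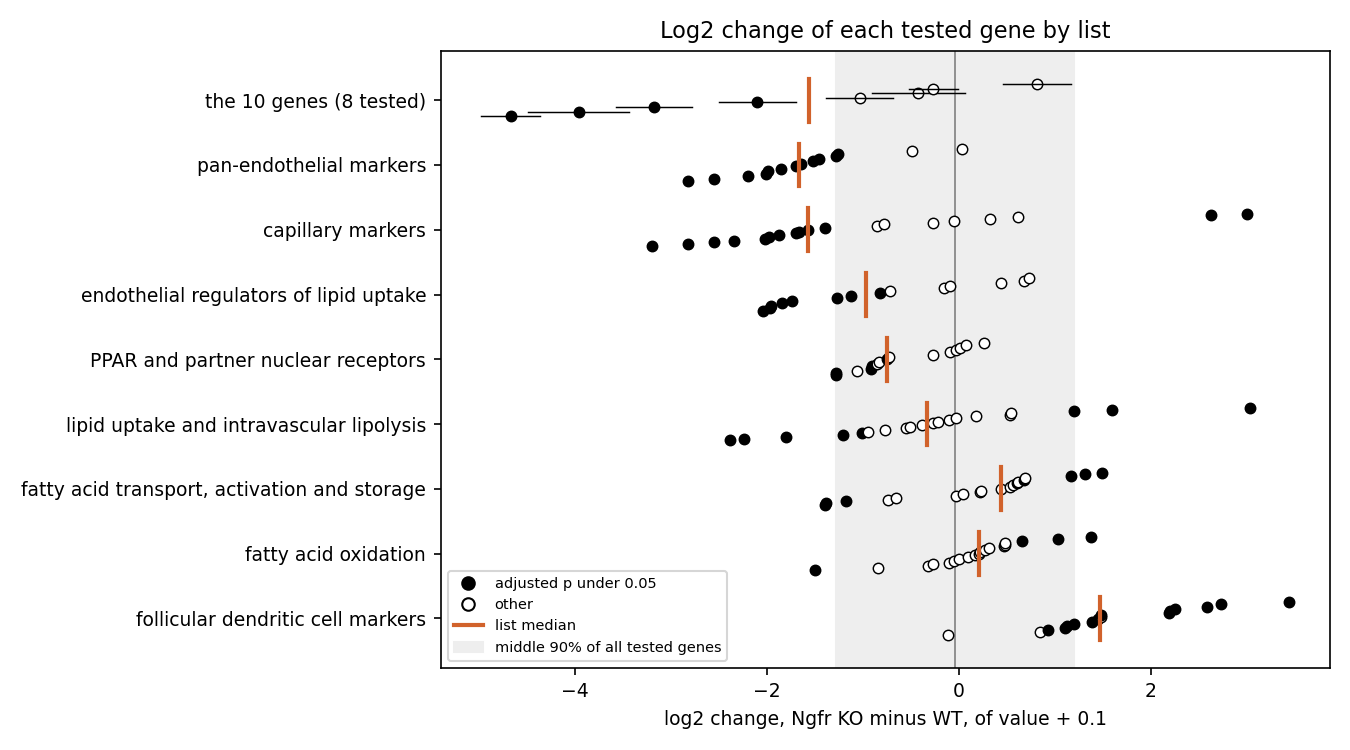
Log2 change (Ngfr KO minus WT, of value + 0.1) of each tested gene of 8 lists and of the 8 tested genes of the set described here, whose lines show ± SE. Filled points had a limma adjusted p under 0.05, orange bars are list medians, and the grey band spans the middle 90% of all genes tested, from -1.28 to 1.20. On this scale Cd300lg, Gpihbp1 and Fabp4 lie below every gene of the pan-endothelial list. Fabp4 (-3.18, SE 0.39) lies close to the lowest of them, Emcn (-2.82). Fabp5, Meox2, Aqp1 and Pparg lie inside the band.

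The genes whose pattern over the 7 samples was most like the mean of the 8 tested genes (as z-scores of log2(value + 0.1)) included Cda, Ankrd50, Creg2 and Sgk3, with Pearson's r of 0.993, 0.990, 0.987 and 0.987. After the group means were subtracted, r was 0.968, 0.962, 0.946 and 0.946. The genes were picked as the highest of all genes tested, so the values describe a likeness over 7 samples that share their libraries. Cda, cytidine deaminase, had means of 3.25 in WT and 0.571 in Ngfr KO.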

How the data were processed

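RNA from sorted cells was amplified with SMART-Seq v4 and libraries were made with Nextera XT, per the labels' protocols. The submitters' processing notes name bcl2fastq 2.20.0.422 and the build mm10; the aligner, the counting program and the annotation are not given in the sources used here. The authors deposited normalised signal per gene, called TMM (trimmed mean of M values), 1 column per sample. Whole reads were recovered from the steps between low values (100% came out whole, within 0.02 reads). PCR reads are not independent molecules, so read numbers cover counting error only. The groups come from the sample titles. Coordinates and lengths came from GENCODE M21 (GRCm38), matched by identifier for 21137 genes and not for 39.

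Ngfr KO was compared with WT by limma 3.58.1 (R 4.3.3; eBayes with trend) on log2(value + 0.1), restricted to genes at 0.1 or more in 3 or more samples, with Benjamini-Hochberg adjustment over all 14592 genes and a threshold of 0.05. Log2 changes are on that scale. p-values measure the spread between these pools. edgeR 4.0.16 (quasi-likelihood, recovered reads, filterByExpr) was an alternative; it called 2551 of 16751 genes, and 2441 genes were called by both. Other alternatives were the pseudocount, the filter, the scaling, robust eBayes, the replicate number as a block and leaving out each sample. On simulated data with 200 of 14586 genes changed 4-fold, limma recovered 82% of them and 8.38% of its calls were unchanged genes. The simulated spread was assumed, and far fewer genes changed than the 22.2% called in the data. These shares therefore need not hold for the calls given here.

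The genes and lists were chosen with earlier results of these data known. Named from each pathway list were the 3 called genes that moved furthest up, the 3 that moved furthest down and the most abundant uncalled gene. From each marker list, the first 2 genes and called genes with a log2 change of at least 2 were eligible. Genes next to the 10 genes and the 5 genes of most similar pattern were eligible too. Of those 5, 1 is not reported here. The summed values of 11 marker lists were compared by an exact permutation test. Besides pan-endothelial markers (exact p = 0.0286), these were lists of high endothelial venules (p = 0.143), lymphatic endothelium (0.0571), FDCs (0.0286), macrophages (0.2), pericytes (0.229), adipocytes (0.6), capillaries (0.8), erythroid cells (0.0286), B cells (0.286) and T cells (0.771), all with an adjusted p of at least 0.105.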

Additional observations from a re-analysis of the deposited data

Results flagged for a closer look

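Of 31 sets of 4 WT values examined for a sample far from the rest, 2 stood out, where chance gives about 1 in 20 (1.55). Both concern Fabp5 in WT replicate 1. Its value there was 13.6, against 36.8 to 41.2 in the other WT samples, a gap of 0.841 of the group's range. Per 100 of the endothelial sum it was 7.76, against 22.8 to 25.8, a gap of 0.832 of the range. The same sample had the lowest summed value of FDC markers of all 7, 1844, and the part of that in the Fabp5 value was not tested.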

How the results depend on the processing

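The 3244 calls over all genes (1602 higher, 1642 lower) stayed within 1.5 times under every alternative that kept all samples, at 2397 to 3272. Leaving out 1 sample gave 1638 to 3571 calls (762 to 1794 higher, 876 to 1777 lower), the lowest without Ngfr KO replicate 2 (1638), Ngfr KO replicate 1 (1880) and WT replicate 1 (2046). Of the 4 lists of lipid pathway genes, 14 genes were called lower and 11 higher. Without a filter 8 were called lower, and with a filter at a value of 1 it was 9, with a pseudocount of 0.1 as well as of 1. Leaving out 1 sample gave 6 to 16 lower and 4 to 12 higher, the lowest without Ngfr KO replicate 2, and 9 lower without Ngfr KO replicate 1 or WT replicate 1. The cause was not tested, except that the stricter filter tests fewer genes. The capillary list kept 10 to 12 genes lower and 2 higher throughout.

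Fabp4, Gpihbp1, Cd36 and Cd300lg were called lower in all 17 alternatives. Pparg was called too with a pseudocount of 1, with a filter at 1, with both, and without Ngfr KO replicate 2. The log2 change of Cd300lg ran from -5.18 to -2.77 and that of Gpihbp1 from -4.66 to -2.23, the smallest sizes coming with a pseudocount of 1, which is worth more reads than the Ngfr KO samples held. Fabp5 ran from 0.44 to 0.97 and Meox2 from -0.43 to 0.02. Genes with every Ngfr KO value below every WT value numbered 6, or 6 to 7 with 1 sample left out. Set against the endothelial sum they numbered 3, or 3 to 4, with no share over all genes computed on that scale. Among 1391 refits of 85 other named genes, 91 lost a call, 15 gained one and 0 reversed.

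The correlations of same-numbered deviations were 0.230, -0.0032 and 0.0332 for replicates 1 to 3. Those of differently numbered samples ran from -0.1115 to 0.0609, so only replicate 1 stood above them. So few pairs cannot decide whether the replicate numbers pair the samples. With the replicate block 3231 genes were called, and Fabp5 was called higher.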
